A study of Mus musculus with 15 samples.

Results

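The genes described here move organic ions across the membranes of liver cells. They comprise the organic anion transporting polypeptides (SLCO genes), the organic cation, anion and carnitine transporters (SLC22A genes) and the ABCC subfamily of ATP-binding cassette proteins, which includes the MRP efflux pumps. Members were chosen by symbol, as every gene named Slco, Slc22a or Abcc followed by a digit, with at least 10 counts summed over the 15 libraries. Of the 24411 genes in the count files, 51 matched these names and 37 were kept: 9 of 15 Slco genes, 19 of 26 Slc22a genes and 9 of 10 Abcc genes. The last genes inside the limit were Slco1c1, Slc22a2 and Slc22a13 with 11, 12 and 14 counts, and the first outside it were Slco5a1 and Slc22a8 with 4 each. Of the 14 left out, 6 had 0 counts.

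Poly(A) RNA of mouse liver was sequenced in 6 libraries labelled LATS KO (LATS_KO), 5 labelled Yap OE (YAP_OE) and 4 labelled TdTomato (TdTomato), the controls, which the design text of the study calls wild type. YAP is a transcriptional coactivator that drives growth, and the Hippo kinases LATS1 and LATS2 hold it in check, so both manipulations are made to raise YAP activity. TdTomato is a red fluorescent protein used as a reporter. The labels give neither the allele, promoter or Cre behind each manipulation nor strain, age, sex or whether libraries of a group come from separate animals, and p-values therefore describe only how these libraries scatter, which may be technical.

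The hepatocyte takes up bile acids, bilirubin, steroid conjugates, drugs and cations from the blood across its basolateral (sinusoidal) membrane, largely through OATP and SLC22A carriers. After conjugation, products leave into bile through canalicular pumps such as MRP2 (Abcc2), or back into the blood through basolateral pumps such as MRP3 and MRP4 (Abcc3 and Abcc4). In cholestasis, when bile acids build up, uptake carriers are known to fall and basolateral pumps to rise. Not all ABCC proteins export substrates: Abcc9 encodes a regulatory subunit of ATP-sensitive potassium channels.

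Depth ranged from 6166680 to 28225360 counts assigned to genes per library. TdTomato 1 and LATS_KO 3 stood apart: 89.9% of reads in LATS_KO 3 and 78.5% in TdTomato 1 did not map (2.53% to 16.7% elsewhere), and they detected 9710 and 8501 genes, against at least 13372. Results are therefore also given from a fit without both, called the reduced fit. Levels are counts scaled to library size with TMM factors (CPM). Yap1 was at 146 to 212 CPM in YAP_OE, against 94.9 to 115 CPM in TdTomato (log2 fold change 0.82 ± 0.17, adjusted p = 0.0043) and 66.0 to 86.4 CPM in LATS_KO. Lats1 was at 0 to 27.4 CPM in LATS_KO, against 0 to 46.0 CPM in TdTomato, and Lats2 at 7.67 to 41.0 CPM in LATS_KO, against 0 to 19.6 CPM in TdTomato. Neither passed the test, and counts over a whole gene do not check a deletion of some exons. All 10 hepatocyte markers examined were detected, with summed levels of 40208 to 179702 CPM in LATS_KO, 77887 to 136434 CPM in YAP_OE and 101573 to 175128 CPM in TdTomato. Within LATS_KO the lowest sums, 88861, 79249 and 40208 CPM, were in LATS_KO 1, 2 and 3, against 170914, 156370 and 179702 CPM in LATS_KO 4, 5 and 6. LATS_KO 4, 5 and 6 also differed in mapping: 10.1%, 15.3% and 16.7% of reads did not map, against 3.46% and 4.95% in LATS_KO 1 and 2. Of mapped reads, 17.2%, 25.8% and 20.8% matched no gene there, against 7.05%, 6.57% and 18.0% in LATS_KO 1, 2 and 3. The part of this in differences between these libraries was not tested. In a bulk sample, fewer cells of a type and less RNA per cell cannot be told apart, and this holds for every level given here.

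The stretch of 250 bases before the start of 4 genes described below is shown: Abcc4 and Abcc5, which rose in YAP_OE, Slco1b2, which fell there, and Abcc2, which did not pass the test. The sequences are RefSeq's, of the build GRCm38.p6, read 5′ to 3′ on the strand of the gene, up to the RefSeq start. Capitals mark a match to the core of the antioxidant response element (TGACNNNGC), the element bound by NRF2, in Abcc4 and Abcc2, and to a half-site of the hepatocyte factor HNF1 (GTTAAT) in Slco1b2.
Abcc4: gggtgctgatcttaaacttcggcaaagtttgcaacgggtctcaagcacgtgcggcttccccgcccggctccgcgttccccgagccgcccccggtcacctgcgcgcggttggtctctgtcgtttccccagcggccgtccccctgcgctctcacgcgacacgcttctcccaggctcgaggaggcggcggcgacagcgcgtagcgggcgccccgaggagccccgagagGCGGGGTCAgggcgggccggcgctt
Abcc5: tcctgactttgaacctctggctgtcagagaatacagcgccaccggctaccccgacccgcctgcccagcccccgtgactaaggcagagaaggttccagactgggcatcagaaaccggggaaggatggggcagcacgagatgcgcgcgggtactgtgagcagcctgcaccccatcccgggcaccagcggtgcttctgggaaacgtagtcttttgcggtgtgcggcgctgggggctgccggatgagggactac
Slco1b2: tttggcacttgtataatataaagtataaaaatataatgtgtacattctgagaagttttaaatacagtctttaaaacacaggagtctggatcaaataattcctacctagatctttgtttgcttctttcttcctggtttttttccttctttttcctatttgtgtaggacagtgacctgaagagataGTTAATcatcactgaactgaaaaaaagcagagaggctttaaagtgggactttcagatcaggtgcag
Abcc2: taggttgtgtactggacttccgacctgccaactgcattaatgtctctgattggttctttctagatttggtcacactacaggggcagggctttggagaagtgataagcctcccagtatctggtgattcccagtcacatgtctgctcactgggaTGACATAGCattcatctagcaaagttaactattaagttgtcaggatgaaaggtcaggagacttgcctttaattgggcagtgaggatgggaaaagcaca
These windows lie at chr14:118706220-118706469 (minus strand), chr16:20426395-20426644 (minus), chr6:141629268-141629517 (plus) and chr19:43782058-43782307 (plus). In Abcc4 the match GCGGGGTCA reads the element on the other strand and lies 25 to 17 bases before the start. Abcc4 has another RefSeq start, not shown, whose window (chr14:118676932-118677181) lies inside the gene. It also holds the antioxidant core, 23 to 15 bases before that start. The match of Abcc2, TGACATAGC, lies 98 to 90 bases before its RefSeq start, and that of Slco1b2, GTTAAT, lies 66 to 61 bases before. GENCODE starts Abcc2 further upstream, so that the last 116 bases of its window, with the match, lie inside the gene as its coordinates are given here. The letters searched do not occur in the Abcc5 window. Promoter entries were found for 29 of the 37 members, with 34 windows, since some genes have several starts. On either strand, the antioxidant core was in 5 of these 34 windows (of Abcc2, Abcc4, Abcc10 and Slc22a27) and in 10.16% of all 32851 mouse promoter windows. The HNF1 half-site was in 2 of the 34 (of Slco1b2 and Slc22a29) and in 6.432% of all windows. The motif of TEAD factors, the DNA-binding partners of YAP, was searched as GGAATG and was in 11 of the 34 windows, of 10 genes, and in 12.64% of all windows. Those 10 genes were Abcc9, Abcc12, Slco1c1, Slco2b1, Slc22a2, Slc22a3, Slc22a14, Slc22a15, Slc22a27 and Slc22a29. Of them, Abcc9 and Abcc12 rose in YAP_OE and Slco2b1 fell there, as described below. The matches of Slco2b1 were in windows of starts inside the gene, and the window before its first base held none. Of the 4 genes shown, none held the TEAD letters within these bases. A match is a string of letters and was not tested for binding.

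Of the 37 members, 29 had enough counts to be tested (edgeR's quasi-likelihood test, p-values adjusted over 13055 genes, threshold 0.05). In LATS_KO against TdTomato, 3 members rose (Abcc4, Abcc5 and Abcc1) and 0 fell, where 10% of all genes tested rose and 0.973% fell. At an unadjusted p under 0.05, 6 of the 29 differed in either direction. DESeq2 called 6 of the 29 higher and 0 lower, where it called 18.7% of all genes higher and 2.65% lower. In YAP_OE against TdTomato, 7 of the 29 rose and 7 fell, where 17.9% of all genes rose and 10.8% fell. The 7 members that rose were 24.1% of those tested, and the 7 that fell were the same share. The reduced fit called 6 higher and 1 lower in LATS_KO, where 13.7% of all genes were higher and 3.24% lower. In YAP_OE it called 10 higher and 9 lower, where 27.2% and 21.2% of all genes were. DESeq2 called 11 of the 29 higher and 7 lower in YAP_OE, where it called 25.6% and 10.2% of all genes. The count of 7 lower in YAP_OE dropped to 3 without TdTomato 3, YAP_OE 1 or YAP_OE 4, and to 4 without TdTomato 2, TdTomato 4, YAP_OE 2 or YAP_OE 5. The count of 3 higher in LATS_KO was 5 without LATS_KO 3 and 0 when only LATS_KO and TdTomato were fitted, a fit in which 0 of all 12020 genes were higher and 1 (0.00832%) was lower. Both comparisons use the same 4 TdTomato libraries and so are not independent. By family, 5 of 9 Abcc genes rose and 1 fell in YAP_OE, 1 of 7 Slco genes rose and 3 fell, and 1 of 13 Slc22a genes rose and 3 fell. The median log2 fold change in YAP_OE was 3.29 over the Abcc genes tested, 0.01 over the Slc22a genes and -1.55 over the Slco genes, beside 0.17 over all genes. In LATS_KO these medians were 1.03, -0.17 and -0.03, beside 0.13 over all genes. The plot of fold changes sets 28 of the 29 side by side.

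**Figure D1:**
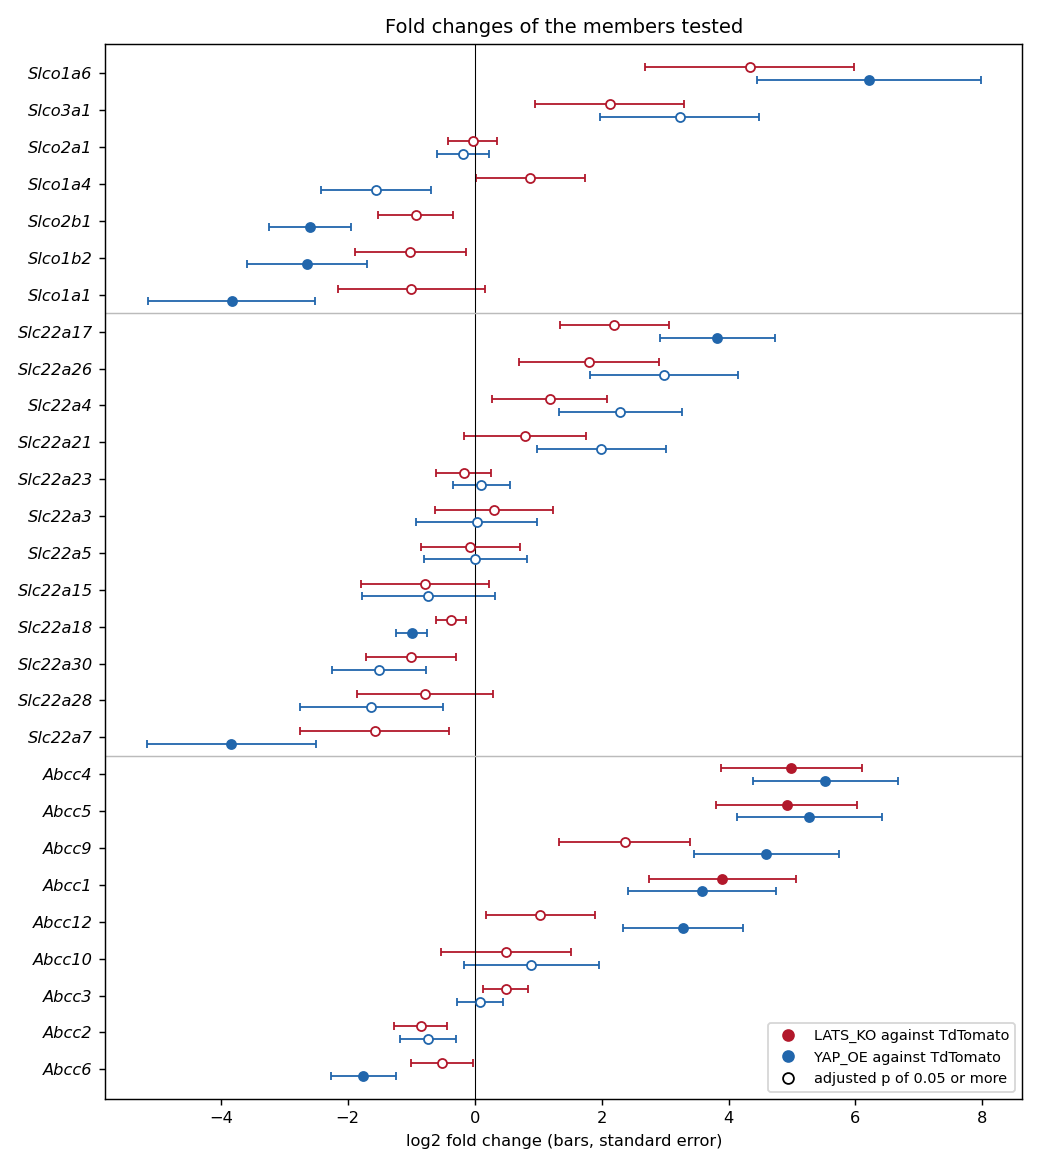
Log2 fold changes (x axis, bars ± SE) of 28 SLCO, SLC22A and ABCC genes (y axis) in LATS_KO and YAP_OE, each against the same TdTomato libraries, with open points where the adjusted p was 0.05 or more. Abcc4 and Abcc5 lie near 5 in both, and the uptake carriers Slco1a1 and Slc22a7 lie at -3.83 in YAP_OE.

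Abcc4 (MRP4; chromosome 14, 118482692 to 118706219, minus strand, mm10) encodes a basolateral pump that carries bile acids together with glutathione, steroid sulphates and cyclic nucleotides out of the cell. Its level was 2.60, 11.6, 29.0, 4.17, 1.89 and 0.841 CPM in LATS_KO 1 to 6. It was 13.9, 13.5, 11.0, 16.4 and 5.64 CPM in YAP_OE 1 to 5, against 0, 0.331, 0.397 and 0.287 CPM in TdTomato 1 to 4. Every LATS_KO and every YAP_OE library lay above the highest TdTomato library, but LATS_KO spanned a wide range, with LATS_KO 3 and 2 highest and LATS_KO 6 lowest. In log2 fold change, Abcc4 rose by 4.99 ± 1.11, adjusted p = 0.012 in LATS_KO and 5.53 ± 1.15, adjusted p = 0.0045 in YAP_OE (edgeR). LATS_KO 3 weighed on the first of these: without it the log2 fold change was 4.01, adjusted p = 0.0076. In the reduced fit it was 3.65, adjusted p = 0.010 in LATS_KO and 5.16, adjusted p = 0.0010 in YAP_OE. When only the LATS_KO and TdTomato libraries were fitted, where no gene was called higher, the adjusted p was 0.094. Groups that did not overlap were seen for 2 higher members in LATS_KO, Abcc4 and Abcc5, where 6.65% of all genes showed this, and for 0 lower members, where 1.90% of all genes did.

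Abcc5 (MRP5; chromosome 16, 20331303 to 20426394, minus strand) encodes an exporter of cyclic nucleotides and other organic anions. Its level was 42.4, 63.8, 103, 7.10, 3.64 and 3.55 CPM in LATS_KO 1 to 6. In YAP_OE 1 to 5 it was 53.5, 44.3, 47.5, 61.9 and 30.7 CPM, against 0, 1.16, 2.62 and 1.15 CPM in TdTomato 1 to 4. Here too all LATS_KO and YAP_OE libraries exceeded all TdTomato libraries, and LATS_KO 1 to 3 were far above LATS_KO 4 to 6. Abcc5 rose by a log2 fold change of 4.92 ± 1.12, adjusted p = 0.013 in LATS_KO and 5.27 ± 1.14, adjusted p = 0.0054 in YAP_OE. Without LATS_KO 3 the first was 4.29 (adjusted p = 0.013), and without TdTomato 3 the values were 5.53 (0.032) in LATS_KO and 5.89 (0.013) in YAP_OE. The reduced fit gave 3.91, adjusted p = 0.021 and 4.88, adjusted p = 0.0034. With only LATS_KO and TdTomato fitted, where no gene was called higher, it was 0.094.

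Abcc1 (MRP1; chromosome 16, 14361558 to 14475737, plus strand), which exports glutathione conjugates such as leukotriene C4 and is scarce in resting hepatocytes, was the other member called in both comparisons. Its level was 0.758, 8.07, 0, 2.85, 1.62 and 1.08 CPM in LATS_KO 1 to 6. In YAP_OE it was 1.48, 1.74, 2.54, 2.50 and 1.41 CPM, against 0, 0.166, 0.318 and 0.144 CPM in TdTomato 1 to 4. All YAP_OE libraries were above TdTomato, while LATS_KO 3 at 0 overlapped TdTomato and LATS_KO 2 stood highest. Abcc1 rose by 3.90 ± 1.16, adjusted p = 0.042 (log2) in LATS_KO and 3.58 ± 1.16, adjusted p = 0.031 in YAP_OE. These calls were not firm. The LATS_KO call ended when any of 11 libraries was left out (TdTomato 1 to 4, LATS_KO 2 and 4, YAP_OE 1 to 5; adjusted p between 0.058 and 0.11), and without LATS_KO 2 the log2 fold change was 2.98 (0.095). The YAP_OE call ended without TdTomato 1, 2 or 4 or YAP_OE 2, 3 or 4 (0.0501 to 0.079). With only LATS_KO and TdTomato fitted, where no gene was called higher, the adjusted p was 0.19. In the reduced fit both passed, at 3.82, adjusted p = 0.0097 and 3.23, adjusted p = 0.0072.

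**Figure D2:**
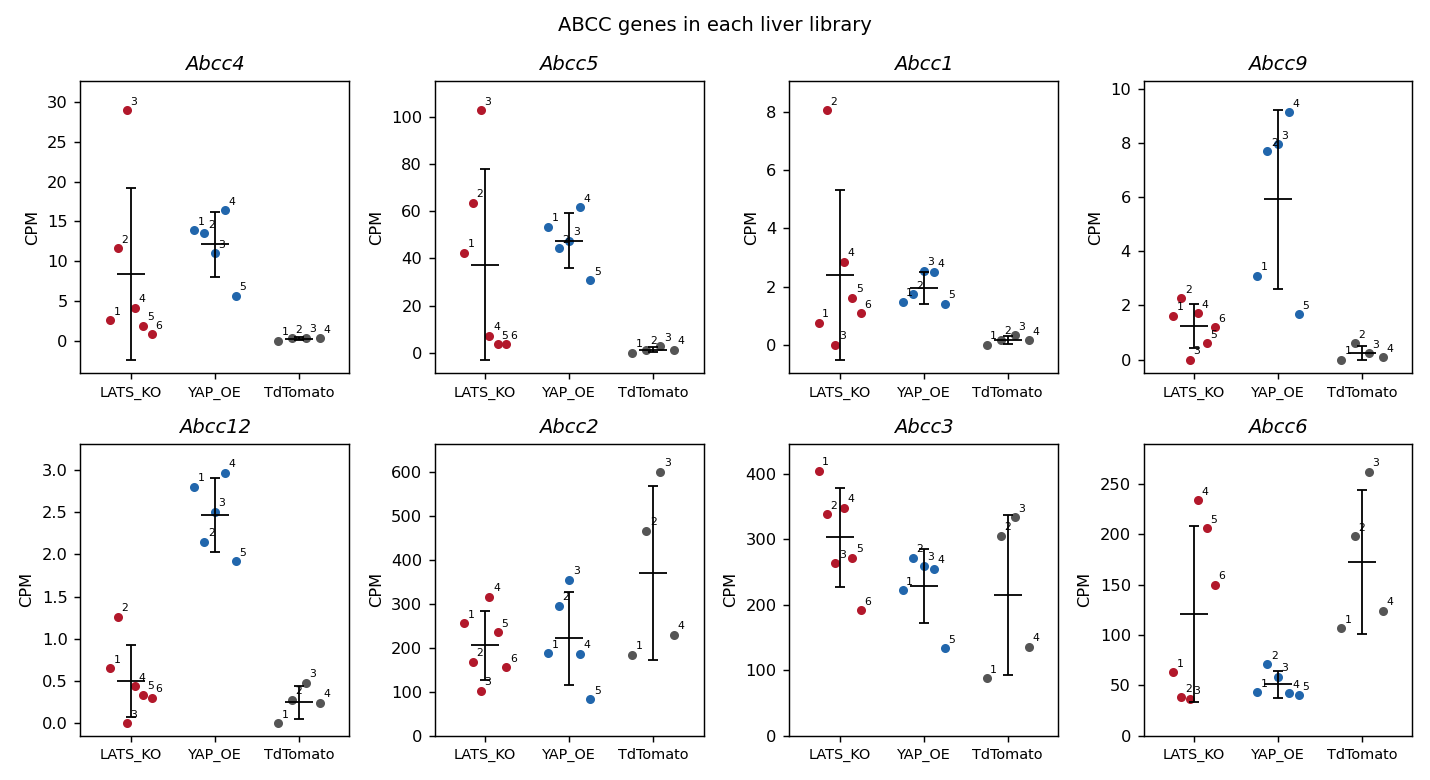
CPM (y axis, linear) of 8 ABCC genes in each library, numbered by replicate, with the mean ± SD (black) of LATS_KO (n = 6), YAP_OE (n = 5) and TdTomato (n = 4). Abcc4 and Abcc5 are above the TdTomato range in every LATS_KO and YAP_OE library, and Abcc1, Abcc9 and Abcc12 in every YAP_OE library.

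Abcc9 (SUR2; chromosome 6, 142587862 to 142702315, minus strand) encodes a subunit of potassium channels known from muscle and vessel wall cells. It measured 1.62, 2.27, 0, 1.71, 0.607 and 1.20 CPM in LATS_KO 1 to 6. Its YAP_OE levels were 3.11, 7.71, 7.97, 9.15 and 1.69 CPM, against 0, 0.607, 0.238 and 0.0958 CPM in TdTomato 1 to 4. All YAP_OE libraries were above TdTomato, and YAP_OE 2, 3 and 4 were the highest. Against TdTomato the log2 fold change was 4.60 ± 1.15, adjusted p = 0.0096 in YAP_OE and 2.36 ± 1.03, adjusted p = 0.16 in LATS_KO, which missed the threshold. Without TdTomato 2 the YAP_OE value was 5.68 (adjusted p = 0.016), and in the reduced fit LATS_KO reached 2.24, adjusted p = 0.0496. Markers of stellate cells and fibroblasts moved with it: the summed level of 7 such markers was 16.7 to 88.3 CPM in YAP_OE and 0 to 20.1 CPM in LATS_KO, against 0.0774 to 11.0 CPM in TdTomato, where Col1a1 was at 0. Of these 7, 6 rose in YAP_OE and 2 in LATS_KO, where 17.9% and 10% of all genes rose. Their part in the change of Abcc9 was not tested.

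Abcc12 (MRP9; chromosome 8, 86482260 to 86580686, minus strand), a member without a settled substrate, was low in all libraries. In LATS_KO 1 to 6 it stood at 0.649, 1.26, 0, 0.438, 0.337 and 0.300 CPM. YAP_OE libraries had 2.80, 2.15, 2.51, 2.97 and 1.92 CPM, against 0, 0.276, 0.477 and 0.239 CPM in TdTomato 1 to 4. The YAP_OE range lay above that of both other groups. Abcc12 rose in YAP_OE by 3.29 ± 0.94, adjusted p = 0.018, and the LATS_KO value was 1.03 ± 0.86, adjusted p = 0.51. Without TdTomato 4 the YAP_OE call ended at 0.052. It also ended when reads of both strands were counted (log2 fold change 0.66, adjusted p = 0.66), where TdTomato 1, one of the libraries that stood apart, held 5.34 CPM (69 counts) on the strand opposite to Abcc12 and each of the other 14 libraries held 0.

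Abcc2, Abcc3 and Abcc6 are the ABCC genes best known from normal hepatocytes, and of these Abcc6 passed the test, in YAP_OE. Abcc2 (MRP2; chromosome 19, 43782192 to 43840740, plus strand), the canalicular pump for bilirubin glucuronides, was at 255, 168, 102, 316, 235 and 155 CPM in LATS_KO 1 to 6. It was at 188, 295, 355, 187 and 82.4 CPM in YAP_OE 1 to 5, against 184, 466, 601 and 229 CPM in TdTomato 1 to 4. The 3 groups overlapped, with TdTomato itself spread widely between TdTomato 1 and 3. The log2 fold change was -0.85 ± 0.42, adjusted p = 0.22 in LATS_KO and -0.74 ± 0.44, adjusted p = 0.23 in YAP_OE. Abcc3 (MRP3; chromosome 11, 94343295 to 94392997, minus strand), the basolateral pump for glucuronides, was at 405, 339, 264, 348, 272 and 191 CPM in LATS_KO 1 to 6. YAP_OE had 222, 272, 260.0, 255 and 134 CPM, against 87.4, 305, 334 and 136 CPM in TdTomato 1 to 4. Again all groups overlapped (log2 fold change 0.49 ± 0.35, adjusted p = 0.43 in LATS_KO and 0.08 ± 0.36, adjusted p = 0.90 in YAP_OE). A p over the threshold does not show that Abcc2 and Abcc3 were equal in the groups.

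Abcc6 (chromosome 7, 45967555 to 46030302, minus strand), whose loss in humans causes pseudoxanthoma elasticum and which lets hepatocytes release ATP, was the ABCC gene that fell in YAP_OE. Its level was 43.2, 71.2, 58.6, 42.3 and 40.4 CPM in YAP_OE 1 to 5, against 107, 198, 262 and 124 CPM in TdTomato 1 to 4. LATS_KO 1 to 6 had 62.8, 38.2, 36.3, 234, 206 and 150.0 CPM. No YAP_OE library reached the TdTomato range, LATS_KO 1 to 3 lay within or just below the YAP_OE range and LATS_KO 4 to 6 within the TdTomato range. Its log2 fold change was -1.76 ± 0.51, adjusted p = 0.020 in YAP_OE and -0.51 ± 0.49, adjusted p = 0.57 in LATS_KO. The YAP_OE call ended without TdTomato 3 (0.060) and stood in the reduced fit at -1.93, adjusted p = 0.0067.

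Among the OATP uptake carriers, 3 fell in YAP_OE: Slco1b2, Slco1a1 and Slco2b1. Slco1b2 (OATP1B2; chromosome 6, 141629518 to 141686646, plus strand), the mouse counterpart of human OATP1B1 and OATP1B3 and a carrier of bilirubin, bile acids and statins, had 24.0, 209, 301, 75.7 and 108 CPM in YAP_OE 1 to 5, against 607, 997, 1046 and 945 CPM in TdTomato 1 to 4. In LATS_KO 1 to 6 it had 85.5, 21.5, 46.7, 707, 949.6 and 863 CPM. YAP_OE lay below TdTomato throughout, while LATS_KO 1, 2 and 3 lay within or below the YAP_OE range and LATS_KO 4, 5 and 6 inside the TdTomato range. On the log2 scale the difference was -2.65 ± 0.94, adjusted p = 0.047 in YAP_OE and -1.01 ± 0.87, adjusted p = 0.52 in LATS_KO. The YAP_OE call was close to the threshold: it ended without any one of TdTomato 1 to 4, LATS_KO 4 or YAP_OE 1, 2, 4 or 5 (adjusted p between 0.053 and 0.10) and with RLE in place of TMM factors (0.054), and stood in the reduced fit at -2.80, adjusted p = 0.029.

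Slco1a1 (OATP1A1; chromosome 6, 141907282 to 141946962, minus strand), which carries steroid conjugates and is typical of male mouse liver, had 4.00, 60.7, 49.6, 8.76 and 32.0 CPM in YAP_OE 1 to 5, against 163, 595, 602 and 403 CPM in TdTomato 1 to 4. LATS_KO 1 to 6 had 10.1, 0.921, 9.44, 394, 479 and 433 CPM. All YAP_OE libraries were below TdTomato 1, the lowest control, and LATS_KO again held 3 libraries near or below 10 CPM and 3 inside the TdTomato range. Log2 fold changes were -3.83 ± 1.32, adjusted p = 0.040 in YAP_OE and -0.997 ± 1.16, adjusted p = 0.65 in LATS_KO. Leaving out TdTomato 2, 3 or 4 or any YAP_OE library ended the YAP_OE call (0.056 to 0.091), and the reduced fit gave -4.11, adjusted p = 0.023.

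Slco2b1 (OATP2B1; chromosome 7, 99657804 to 99711340, minus strand), a carrier of steroid sulphates, had 15.6, 41.8, 53.4, 16.7 and 29.6 CPM in YAP_OE 1 to 5, against 99.2, 225, 240.3 and 193 CPM in TdTomato 1 to 4. LATS_KO 1 to 6 had 92.6, 33.8, 8.33, 159.8, 157 and 144 CPM. YAP_OE and TdTomato did not overlap, and LATS_KO 3 was the lowest library of all. Slco2b1 fell in YAP_OE (log2 fold change -2.59 ± 0.64, adjusted p = 0.0092), a call that stood whichever library was left out, and LATS_KO had -0.93 ± 0.59, adjusted p = 0.36.

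Slco1a4 (OATP1A4; chromosome 6, 141805440 to 141856199, minus strand), a bile acid and digoxin carrier, had a pattern of its own. Its level was 157, 90.6, 69.1, 90.5, 112 and 93.0 CPM in LATS_KO 1 to 6. It was 10.2, 29.8, 28.4, 15.5 and 10.7 CPM in YAP_OE 1 to 5, against 0, 93.0, 95.3 and 33.8 CPM in TdTomato 1 to 4. LATS_KO lay above YAP_OE in every library, and TdTomato ranged from 0 in TdTomato 1 to levels like those of LATS_KO. Against TdTomato the log2 fold change was 0.88 ± 0.85, adjusted p = 0.58 in LATS_KO and -1.55 ± 0.87, adjusted p = 0.20 in YAP_OE, so neither passed. Without TdTomato 1 and LATS_KO 3 the YAP_OE value was -1.97, adjusted p = 0.0028.

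Slco1a6 (chromosome 6, 142085761 to 142208521, minus strand), from the same chromosome 6 cluster of related carriers, was almost absent from TdTomato. It had 4.46, 2.85, 2.69, 5.29 and 2.82 CPM in YAP_OE 1 to 5, against 0, 0.0552, 0 and 0.0958 CPM in TdTomato 1 to 4, which is 3 counts over the 4 control libraries. In LATS_KO 1 to 6 the level was 2.98, 2.67, 0, 0, 0 and 0.120 CPM, with LATS_KO 1 and 2 high and the others at or near 0. The ratio of summed counts per depth was 79.1 in YAP_OE (95% interval 26.9 to 385, counting error only) and 27.1 in LATS_KO (9.08 to 133). Slco1a6 rose in YAP_OE (log2 fold change 6.21 ± 1.76, adjusted p = 0.017), while LATS_KO had 4.33 ± 1.64, adjusted p = 0.10. Without TdTomato 4 the YAP_OE value was 7.04, adjusted p = 0.039. Reads that map to several places were not counted, so levels within the Slco1a cluster are uncertain.

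**Figure D3:**
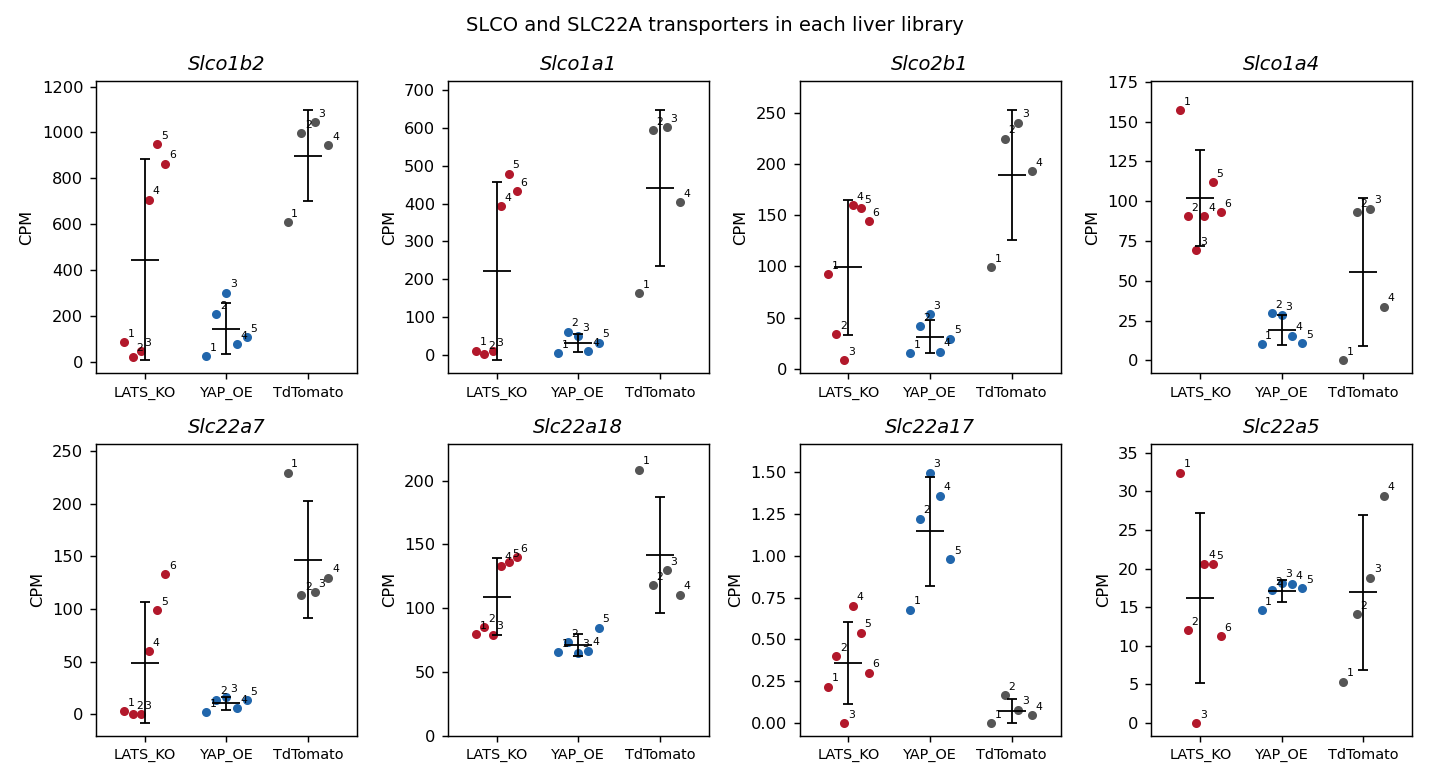
CPM (y axis, linear) of 8 genes of the SLCO and SLC22A families in each library, numbered by replicate, with the mean ± SD (black) of LATS_KO (n = 6), YAP_OE (n = 5) and TdTomato (n = 4). Slco1b2, Slco1a1 and Slc22a7 are below the TdTomato range in all YAP_OE libraries, and in these 3 genes LATS_KO 1 to 3 lie far below LATS_KO 4 to 6.

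Among the SLC22A genes, Slc22a7 and Slc22a18 fell in YAP_OE. Slc22a7 (OAT2; chromosome 17, 46432183 to 46438457, minus strand), a carrier of organic anions and nucleobases, had 2.09, 13.9, 16.4, 5.68 and 13.4 CPM in YAP_OE 1 to 5, against 229, 113, 116 and 129.6 CPM in TdTomato 1 to 4. In LATS_KO 1 to 6 it had 3.08, 0.307, 0, 59.7, 98.7 and 133 CPM. All YAP_OE libraries were below TdTomato, and LATS_KO 2 and 3 were at or near 0 while LATS_KO 6 reached the TdTomato range. Slc22a7 had a log2 fold change of -3.83 ± 1.33, adjusted p = 0.041 in YAP_OE and -1.58 ± 1.17, adjusted p = 0.45 in LATS_KO. Leaving out any TdTomato or YAP_OE library, or LATS_KO 4, ended the YAP_OE call (0.051 to 0.093), and the reduced fit gave -3.54, adjusted p = 0.025.

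Slc22a18 (chromosome 7, 143473736 to 143499334, plus strand), an imprinted gene with no settled substrate, had 65.6, 73.3, 64.9, 66.6 and 84.7 CPM in YAP_OE 1 to 5, against 209, 118, 129.6 and 110.4 CPM in TdTomato 1 to 4. LATS_KO 1 to 6 had 79.7, 85.1, 79.2, 133, 136 and 139.8 CPM. YAP_OE values were close together and below all TdTomato values. Slc22a18 fell in YAP_OE (log2 fold change -0.996 ± 0.25, adjusted p = 0.0092), the smallest of the 14 changes called there, and the LATS_KO value was -0.38 ± 0.24, adjusted p = 0.35.

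Slc22a17 (chromosome 14, 54906304 to 54913132, minus strand), the receptor of lipocalin 2, rose in YAP_OE and was low throughout. It had 0.677, 1.22, 1.496, 1.36 and 0.980 CPM in YAP_OE 1 to 5, against 0, 0.166, 0.0794 and 0.0479 CPM in TdTomato 1 to 4. LATS_KO 1 to 6 had 0.216, 0.399, 0, 0.702, 0.539 and 0.300 CPM. YAP_OE and TdTomato did not overlap, and LATS_KO overlapped both. The log2 fold change was 3.82 ± 0.90, adjusted p = 0.0075 in YAP_OE and 2.20 ± 0.86, adjusted p = 0.11 in LATS_KO. Without TdTomato 2 the YAP_OE value was 4.57 (0.016), and the reduced fit called LATS_KO too (2.09, adjusted p = 0.032).

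Slc22a5 (OCTN2; chromosome 11, 53864542 to 53891660, minus strand), the carnitine carrier, had 32.4, 12.04, 0, 20.7, 20.6 and 11.2 CPM in LATS_KO 1 to 6. It had 14.6, 17.2, 18.2, 18.0 and 17.4 CPM in YAP_OE 1 to 5, against 5.34, 14.1, 18.8 and 29.4 CPM in TdTomato 1 to 4. The groups overlapped, and the YAP_OE libraries were the most alike. The log2 fold change was -0.07 ± 0.79, adjusted p = 0.97 in LATS_KO and 0.01 ± 0.82, adjusted p = 0.99 in YAP_OE, values whose sign turned under several alternatives.

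The 11 further members tested passed in neither comparison with TdTomato in the edgeR fit of all libraries, and other fits that called some of them are given below. The prostaglandin carrier Slco2a1 was the most abundant of them, at 92.2 to 322 CPM in LATS_KO, 111 to 239 CPM in YAP_OE and 74.1 to 261 CPM in TdTomato. Slc22a30, of a cluster of related rodent organic anion transporters, was at 8.72 to 208 CPM in LATS_KO, 49.1 to 74.5 CPM in YAP_OE and 143 to 207 CPM in TdTomato, and its YAP_OE log2 fold change was -1.51 ± 0.75, adjusted p = 0.14. The ergothioneine carrier Slc22a4 (OCTN1) was at 0.222 to 10.3 CPM in LATS_KO, 9.54 to 20.3 CPM in YAP_OE and 0 to 4.74 CPM in TdTomato (YAP_OE log2 fold change 2.30 ± 0.97, adjusted p = 0.089). For Slco3a1 the ranges were 0 to 15.1 CPM in LATS_KO, 3.72 to 15.2 CPM in YAP_OE and 0 to 1.63 CPM in TdTomato (3.23 ± 1.25, adjusted p = 0.065). For Slc22a4 and Slco3a1 every YAP_OE library lay above every TdTomato library. Slc22a26, of the same rodent cluster as Slc22a30, had a YAP_OE value of 2.98 ± 1.16, adjusted p = 0.066. Slc22a3 (OCT3) did not exceed 1.68 CPM in any library, and 9.31% of its exon bases lie opposite exons of Plg. Slc22a28, a neighbour of Slc22a30, lay at 0 to 29.7 CPM in LATS_KO, 4.00 to 10.2 CPM in YAP_OE and 13.3 to 24.1 CPM in TdTomato. Slc22a30 and Slc22a28 were below TdTomato in every YAP_OE library. For Slc22a23, an orphan carrier, the ranges were 33.8 to 96.0 CPM in LATS_KO, 66.3 to 112 CPM in YAP_OE and 13.5 to 129 CPM in TdTomato. Abcc10 (MRP7) lay at 0 to 13.0 CPM in LATS_KO, 7.57 to 13.0 CPM in YAP_OE and 0 to 11.0 CPM in TdTomato, so that the groups overlapped. Slc22a15 was at 0 to 6.45 CPM in LATS_KO, 3.18 to 5.72 CPM in YAP_OE and 0 to 12.6 CPM in TdTomato, and Slc22a21 did not exceed 1.60 CPM. The reduced fit called Slc22a4 higher in LATS_KO (1.02, adjusted p = 0.049) and YAP_OE (1.88, adjusted p = 0.0015), Slco3a1 (2.82, adjusted p = 0.018) and Slc22a26 (2.66, adjusted p = 0.035) higher in YAP_OE, and Slc22a15 lower in both (-0.94, adjusted p = 0.031, and -1.14, adjusted p = 0.0047). In YAP_OE, DESeq2 called Slco3a1 (adjusted p = 0.0055), Slc22a26 (0.0066), Slc22a4 (0.0093) and Slc22a21 (0.047) higher, and edgeR with RLE factors called Slc22a26 (0.0498). When only YAP_OE and TdTomato were fitted, Slc22a30 (log2 fold change -1.51, adjusted p = 0.00030) and Slc22a28 (-1.63, 0.0051) were lower, and Slco3a1 (0.020), Slc22a26 (0.031) and Slc22a21 (0.044) were higher. That fit called 21.5% of all genes higher and 16.6% lower. In YAP_OE, 11 of the 29 members tested lay wholly above TdTomato, where 28.3% of all genes did, and 9 wholly below, where 13.4% did. Slco1c1, Slco4a1, Slc22a2, Slc22a13, Slc22a13b-ps, Slc22a14, Slc22a27 and Slc22a29 did not pass the filter on low counts of the edgeR fit. With a filter of 10 summed counts in its place, Slc22a27 was called higher in LATS_KO (adjusted p = 0.022) and YAP_OE (adjusted p = 0.0102), and Slc22a13 in YAP_OE (0.0486). DESeq2 also called Slc22a27 higher in LATS_KO (0.0017) and YAP_OE (0.00060).

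YAP_OE was also set against LATS_KO directly. In edgeR's test 0 members passed in either direction, where 0.498% of all genes were higher and 0.490% lower, although 8 of the 29 had an unadjusted p under 0.05. DESeq2 called 3 higher (Slc22a17, Abcc9 and Abcc12) and 0 lower, beside 3.33% and 2.59% of all genes. Slco1a4 had 10.2, 29.8, 28.4, 15.5 and 10.7 CPM in YAP_OE 1 to 5, against 157, 90.6, 69.1, 90.5, 112 and 93.0 CPM in LATS_KO 1 to 6, the sole member with all YAP_OE libraries below all LATS_KO libraries (1.95% of all genes). Its log2 fold change was -2.43 ± 0.84, adjusted p = 0.18 in the fit of all libraries, -2.52, adjusted p = 0.0027 in the reduced fit, and -2.42, adjusted p = 0.0064, when only these 2 groups were fitted (a fit with 0.698% of all genes higher and 0.525% lower). It also passed when TdTomato 1 alone was left out (log2 fold change -2.43, adjusted p = 0.00457), and Slco2b1 passed when LATS_KO 3 alone was left out (-1.90, adjusted p = 0.037). Abcc12 was the sole member with all YAP_OE libraries above all LATS_KO libraries (4.76% of all genes), with 2.25 ± 0.76, adjusted p = 0.17. The reduced fit called Abcc12 (2.00, adjusted p = 0.011), Abcc9 (1.98, adjusted p = 0.032) and Slc22a17 (1.39, adjusted p = 0.043) higher, and Slco2b1 (-1.91, adjusted p = 0.017), Slc22a18 (-0.69, adjusted p = 0.029) and Abcc6 (-1.44, adjusted p = 0.048) lower. In that fit 5.56% of all genes were higher and 7.17% lower. Abcc4 and Abcc5 had log2 fold changes of 0.54 ± 0.79, adjusted p = 0.87 and 0.36 ± 0.81, adjusted p = 0.94, with standard errors that leave room for a difference in either direction.

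Levels per kilobase of exon allow genes to be compared with each other. Among the genes reported, the highest mean levels per kb in YAP_OE were those of Slc22a18 (41.8 CPM per kb), Abcc3 (40.1), Slco1b2 (29.1) and Abcc2 (26.0). In LATS_KO the order differed between libraries, so none is given for the group mean. Slco1b2 had 17.3, 4.37 and 9.47 CPM per kb in LATS_KO 1, 2 and 3, below Slc22a18 (46.9, 50.1 and 46.6) and Abcc3 (71.1, 59.5 and 46.3). In LATS_KO 4, 5 and 6 Slco1b2 had 143, 193 and 175 CPM per kb, above Slc22a18 (78.4, 80.1 and 82.3) and Abcc3 (61.1, 47.7 and 33.6). In TdTomato the order was Slco1b2 (182), Slco1a1 (83.6), Slc22a18 (83.4) and Slc22a7 (69.9). The neighbours Slc22a18 and Abcc3 in YAP_OE, and Slco1a1 and Slc22a18 in TdTomato, differ by far less than the spread between libraries.

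Summed over each family, the SLCO genes had 179 ± 138 CPM per kb in LATS_KO (mean ± SD, n = 6), 56.8 ± 29.0 in YAP_OE (n = 5) and 319.6 ± 102 in TdTomato (n = 4). The SLC22A genes had 229.8 ± 153 CPM per kb in LATS_KO, 136 ± 28.4 in YAP_OE and 435 ± 50.3 in TdTomato. For the ABCC genes the sums lay closer, at 105 ± 24.8 in LATS_KO, 84.1 ± 24.7 in YAP_OE and 112 ± 57.6 in TdTomato. The total over all 37 members was 204 to 824 CPM per kb in LATS_KO, 209 to 365 in YAP_OE and 738 to 978 in TdTomato. LATS_KO 1, 2 and 3 had totals of 303, 231 and 204 CPM per kb, all below TdTomato, and LATS_KO 4, 5 and 6 had 726, 824 and 792. The ABCC share of the total was 10.1% to 41.3% in LATS_KO, 18.7% to 37.5% in YAP_OE and 7.53% to 18.1% in TdTomato, so that the YAP_OE and TdTomato shares did not overlap. The summed hepatocyte markers given above were low in the same 3 LATS_KO libraries. In YAP_OE 1, 2 and 5 they were 125399, 105986 and 136434 CPM, above TdTomato 1 (101573 CPM). YAP_OE 3 and 4 had 77887 and 91638 CPM, and TdTomato 2 to 4 had 141319 to 175128 CPM. Transporter totals in YAP_OE 1 to 5 were 209, 339, 365, 229 and 244 CPM per kb, against 738 in TdTomato 1. The part of hepatocyte markers in these totals was not tested.

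**Figure D4:**
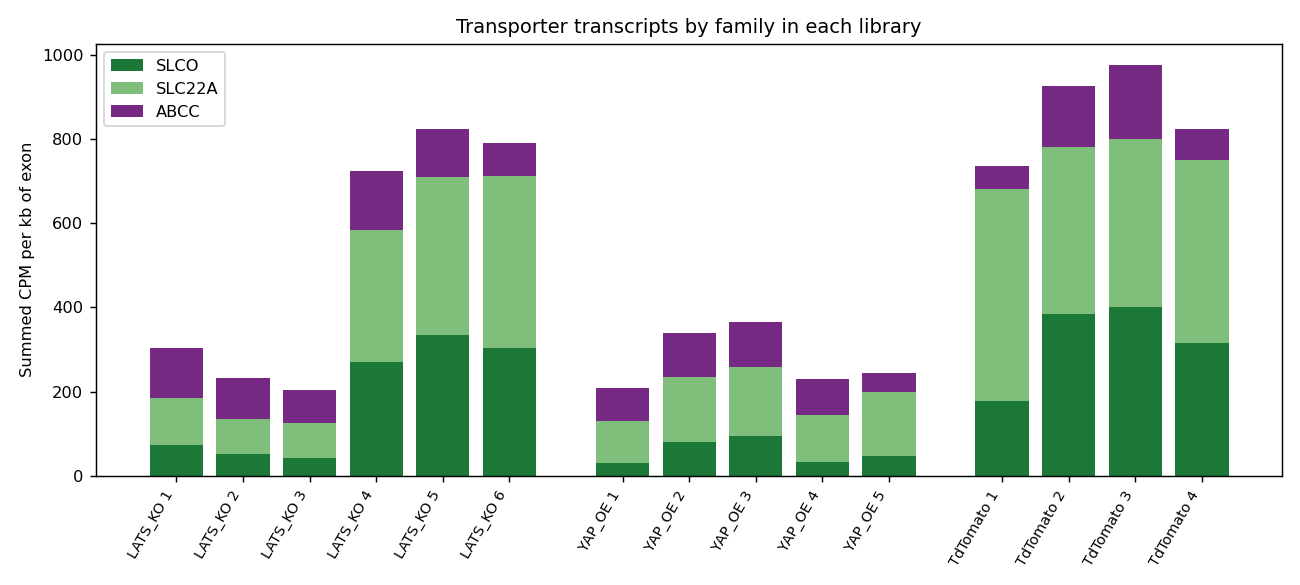
Summed level of the SLCO, SLC22A and ABCC members in CPM per kb of exon (y axis, stacked bars from 0) in each of the 15 libraries (x axis), with LATS_KO, YAP_OE and TdTomato from left to right. LATS_KO 1 to 3 (204 to 303 CPM per kb) resemble YAP_OE in height, and LATS_KO 4 to 6 (726 to 824) resemble TdTomato.

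Other transporters of the hepatocyte were examined as a list of 18 genes, of which 15 were tested. In YAP_OE 2 of these rose and 6 fell, where 17.9% of all genes rose and 10.8% fell. In LATS_KO 1 rose and 0 fell (4 had an unadjusted p under 0.05), where 10% of all genes rose and 0.973% fell. Abcb1a, a multidrug pump (P-glycoprotein), had 3.55 to 121 CPM in LATS_KO and 38.1 to 66.2 CPM in YAP_OE, against 0 to 2.22 CPM in TdTomato, and rose in both (log2 fold change 5.27 ± 1.08, adjusted p = 0.0091 and 5.31 ± 1.09, adjusted p = 0.0044). The lactate and monocarboxylate carrier Slc16a1 rose in YAP_OE (1.52 ± 0.35, adjusted p = 0.0069). Abcg2, a canalicular pump for sulphate conjugates, fell to 40.6 to 49.0 CPM in YAP_OE, against 98.2 to 112 CPM in TdTomato (-1.31 ± 0.21, adjusted p = 0.0016). The bile salt export pump Abcb11 (-2.76 ± 0.74, adjusted p = 0.014) and the sodium-dependent bile acid carrier Slc10a1, or NTCP (-3.21 ± 1.02, adjusted p = 0.028), chosen here after their values were seen, fell as well. The other 3 that fell in YAP_OE were Slc29a1, Slc10a5 and Abcb4. The median of the 15 genes was -0.84 in YAP_OE and -0.13 in LATS_KO, beside 0.17 and 0.13 over all genes.

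Of 15 transcription factors and sensors that act on transporter genes, 1 rose and 3 fell in YAP_OE, and 0 passed in LATS_KO (2 had an unadjusted p under 0.05). These were 6.67% and 20% of the list in YAP_OE, beside 17.9% of all genes that rose and 10.8% that fell. In LATS_KO 10% of all genes rose and 0.973% fell. Nfe2l2 (NRF2), the factor that binds the antioxidant element, had 127 to 152 CPM in YAP_OE, against 19.2 to 75.0 CPM in TdTomato (1.56 ± 0.30, adjusted p = 0.0032). Nr0b2 (SHP), the repressor induced by bile acids, had 4.22 to 12.9 CPM in YAP_OE, against 66.4 to 127 CPM in TdTomato (-3.18 ± 0.78, adjusted p = 0.0090). Nr1i2 (PXR), the xenobiotic receptor, fell too (log2 fold change -1.29 ± 0.33, adjusted p = 0.010), and Rxra, its partner, was the other that fell. Of 15 tested target genes of NRF2, CAR and PXR, 4 rose in YAP_OE and 0 in LATS_KO (3 had an unadjusted p under 0.05). Of all genes, 17.9% rose in YAP_OE and 10% in LATS_KO. In YAP_OE 10 of the 15 had a log2 fold change above 0 and 5 below 0. The tested cytochrome P450 genes, named whatever their p-value, did not pass there. Cyp2b10 (-0.96), Cyp3a11 (-1.51), Cyp2c55 (-2.44) and Cyp1a2 (-2.07) were below 0 and Cyp2b9 (1.12) above. A response of these pathways was not tested. Nqo1, a quinone reductase, had 11.7 to 28.4 CPM in YAP_OE, against 0 to 4.36 CPM in TdTomato (2.81 ± 0.91, adjusted p = 0.031). Gpx2 had 0.314 to 1.47 CPM in YAP_OE and no count in TdTomato, at least 19.1-fold higher against a floor of 3 counts over the group, and Cbr3 rose by 3.38 ± 1.10, adjusted p = 0.032. Slc7a11 was the other gene of this list that rose in YAP_OE. Gclc (0.32), Gclm (0.55), Txnrd1 (0.11), Srxn1 (0.56), Hmox1 (1.71) and Gsr (-0.42), also named whatever their p-value, did not pass there.

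Slco1a1 is known to be higher in male mouse liver and Slco1a4 in female liver, so lists of sex-biased genes were examined. Of 12 genes biased to males, 10 fell in YAP_OE and 1 in LATS_KO, with median log2 fold changes of -3.39 and -1.28. Of all genes, 10.8% fell in YAP_OE and 0.973% in LATS_KO. Mup20, a major urinary protein, had 1157 to 2265 CPM in YAP_OE, against 9713 to 42273 CPM in TdTomato (-3.72 ± 0.54, adjusted p = 0.0011), and it also fell in LATS_KO (-1.89 ± 0.48, adjusted p = 0.021). The sterol hydroxylase Cyp7b1 (-4.71 ± 0.96, adjusted p = 0.0042) and Cyp2d9 (-2.21 ± 0.47, adjusted p = 0.0049) fell in YAP_OE. Of 6 tested genes biased to females, 2 rose in LATS_KO, and 2 rose and 1 fell in YAP_OE. Of all genes, 10% rose in LATS_KO, and 17.9% rose and 10.8% fell in YAP_OE. The gene that fell, chosen after its values were seen, was Cyp17a1 (-4.42 ± 1.28, adjusted p = 0.019). Slco1a4 itself had -1.55 in YAP_OE and was not called. A part of sex in these values was not tested.

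Markers of other cell types moved with the groups too. The summed level of 7 cholangiocyte markers was 108 to 4443 CPM in LATS_KO and 3790 to 6273 CPM in YAP_OE, against 45.1 to 61.4 CPM in TdTomato, where Cftr was at 0. In LATS_KO 1 to 6 it was 4443, 1971, 1350, 217, 108 and 145 CPM. Of the 6 tested, 4 rose in LATS_KO and 5 in YAP_OE. The 7 macrophage and Kupffer cell markers summed to 121 to 863 CPM in LATS_KO and 317 to 597 CPM in YAP_OE, against 3.37 to 14.0 CPM in TdTomato, with 7 risen in LATS_KO and 6 in YAP_OE. Endothelial markers summed to 18.4 to 245 CPM, 101 to 156 CPM and 13.2 to 46.2 CPM in LATS_KO, YAP_OE and TdTomato, with 2 of 7 risen in LATS_KO and in YAP_OE. The list of 5 lymphocyte markers summed to 2.67 to 29.9 CPM in LATS_KO and 6.86 to 14.1 CPM in YAP_OE, against 0 to 0.958 CPM in TdTomato, and the 1 tested, Ptprc (CD45), rose in both. Ptprc is carried by all leukocytes, macrophages included, and made up nearly all of these sums, at 2.67 to 29.2 CPM in LATS_KO and 6.71 to 14.0 CPM in YAP_OE. The others, Cd3e, Cd79a, Nkg7 and Ms4a1, had at most 27 counts each in a group, so that the sum does not measure lymphocytes. Of the hepatocyte markers, 4 of 10 fell in YAP_OE and 1 in LATS_KO. Beside these marker counts, 17.9% of all genes rose and 10.8% fell in YAP_OE, and 10% rose and 0.973% fell in LATS_KO. The part of other cell types in the higher Abcc4, Abcc5, Abcc1 and Slc22a17, and of fewer hepatocyte transcripts in the lower uptake carriers, was not tested.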

How the data were processed

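For every library the authors deposited unnormalized counts per gene, in the layout that the aligner STAR writes. The submitters' processing notes name FastQC, Trimmomatic, STAR and the build mm10. Versions and settings are not given in the sources used here. Per the labels' protocols, libraries were poly(A)-selected and directional, and the extraction text there describes other mice, so no animal, diet or age was taken from it. Of the strand columns the reverse one was taken, since the forward column held 0.966% to 1.99% of strand-assigned counts. Lines that name no gene (unmapped, multiply mapped, unassigned or ambiguous reads) held 14.2% to 92.5% of reads and were left out. Coordinates are from GENCODE M21 (GRCm38, the assembly of mm10).

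CPM were computed from the deposited counts with TMM-scaled library sizes, and per kb of merged exons. Genes were kept by filterByExpr, which left 13055, and compared by edgeR 4.0.16 (quasi-likelihood, glmQLFit with robust estimation; R 4.3.3) in 1 fit of the 15 libraries by group (12 residual degrees of freedom), two-sided. P-values were adjusted by Benjamini-Hochberg over the whole table and called under 0.05. SE is the size of the log2 fold change divided by the square root of F. Ratios with 1 to 3 counts in a group have exact 95% intervals. Against 0 counts a floor of 3 counts over the group was used. These cover counting error only. No pair of libraries of a group differed only by sampling noise (lowest chi-square per degree of freedom 26.3). The procedure was tested on simulated data, with 200 genes changed in LATS_KO or in YAP_OE. Against TdTomato it called 2.99% of 2-fold changes in LATS_KO and 5.97% in YAP_OE. In each it called 41.8% of 4-fold changes, 78.8% of 8-fold changes and at most 0.0311% of unchanged genes. These rates belong to the simulated data with 200 changed genes. In the real libraries 1311 genes were called higher and 127 lower in LATS_KO, and 2332 and 1412 in YAP_OE. Whether the rates hold for the real libraries was not tested. A member that did not pass may still differ.

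The members and lists were chosen with earlier results of these data known. Named with full values were Abcc4, a core of 10 hepatocyte carriers and pumps, and each further member called in any comparison, 18 in all. The results of 2 genes are not reported here. At most 3 genes per list outside the families were named, those with the smallest adjusted p, unless stated. The alternatives were RLE factors, DESeq2 1.42.0, a filter of 10 summed counts, the column without strand, fitting the compared groups alone, a block for the replicate number, leaving out each library in turn, and leaving out TdTomato 1 and LATS_KO 3 together.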

Additional observations from a re-analysis of the deposited data

Results flagged for a closer look

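In 3 of 54 sets of a named gene and a group, 1 library lay far from the others of its group. Chance flags about 1 in 20 such sets. Slc22a7 was at 229 CPM in TdTomato 1, against 113 to 129.6 CPM in TdTomato 2 to 4. Abcc1 was at 8.07 CPM in LATS_KO 2, against at most 2.85 CPM in the other LATS_KO libraries. Slc22a5 was at 14.6 CPM in YAP_OE 1, against 17.2 to 18.2 CPM in YAP_OE 2 to 5.

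Counts on the strand opposite to the gene entered only the alternative that counts both strands. In 3 cases they reached 1 CPM in a library, were at least 5% of the strand-assigned counts of the gene there and exceeded the highest TdTomato library. Values above TdTomato that missed one of these limits occurred for other members. Slco1b2 had 11.2 CPM on that strand in LATS_KO 3, which is 19.4% of its strand-assigned counts there. Abcc5 had 9.55 CPM in LATS_KO 3, 8.48% of its counts. Slc22a3, which overlaps Plg on the other strand, had 1.08 CPM in LATS_KO 5, 47.1% of its counts.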

How the results depend on the processing

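The 54 fold changes of the 18 named members were recomputed under 22 alternatives, which gave 1185 values: 1079 kept direction and side of the threshold, 58 lost the call, 22 gained one and 26 changed sign. None of the 17 called fold changes changed sign. Of these 17, 9 kept their call whichever library was left out. Members called higher in LATS_KO against TdTomato were 3, but 7 by DESeq2 (with Slc22a27, which edgeR's filter left out), 6 in the reduced fit and 0 when only these 2 groups were fitted, and 2 to 5 when leaving out 1 library. Members lower were 0, but 1 in the reduced fit. In YAP_OE against TdTomato, 7 were higher, but 12 by DESeq2, again with Slc22a27 (5 to 10 leaving out 1 library), and 7 were lower (3 to 7 leaving out 1 library). In YAP_OE against LATS_KO, 0 were higher, but 3 by DESeq2 and 3 in the reduced fit, and 0 were lower, but 4 in the reduced fit, 1 when only the 2 groups were fitted, and 0 to 1 leaving out 1 library. The cause of these shifts was not tested, beyond the fewer libraries in some fits. The log2 fold changes that changed sign had not been called in their own comparison. Those of Slc22a5 in LATS_KO were 0.0086 with RLE, 0.0079 by DESeq2, and 0.34, 0.0060, 0.19 and 0.018 without TdTomato 4 and LATS_KO 2, 3 and 6. In YAP_OE against TdTomato, Slc22a5 was at -0.29 in the reduced fit and -0.29, -0.067, -0.0078 and -0.0038 without TdTomato 1, TdTomato 2, YAP_OE 3 and YAP_OE 4, and in YAP_OE against LATS_KO at -0.18 in the reduced fit and -0.18 and -0.0064 without LATS_KO 3 and 6. Abcc2 in YAP_OE against LATS_KO was at -0.030 in the reduced fit and -0.029, -0.013 and -0.12 without LATS_KO 3, YAP_OE 2 and YAP_OE 3. Abcc3 in YAP_OE against TdTomato was at -0.18 in the reduced fit and -0.18 and -0.086 without TdTomato 1 and 4. Abcc1 in YAP_OE against LATS_KO was at 0.60 without LATS_KO 2, and Abcc12 in LATS_KO at -1.60 with the unstranded column. Leaving out 1 library gave ranges that reached -0.39 for Slc22a5 in LATS_KO, 0.42 for it in YAP_OE against TdTomato and 0.40 against LATS_KO, 0.33 for Abcc2 and -0.58 for Abcc1 in YAP_OE against LATS_KO, and 0.37 for Abcc3 in YAP_OE against TdTomato. Whether the replicate numbers pair the libraries could not be settled with so few libraries. Deviations of same-numbered libraries correlated between -0.25 and 0.23. Of 8, 8 and 10 libraries with a numbered partner, 0, 4 and 2 correlated best with their own number in LATS_KO against TdTomato, YAP_OE against TdTomato and YAP_OE against LATS_KO. With the replicate block, 2 members were higher and 0 lower in LATS_KO, 5 higher and 5 lower in YAP_OE, and 0 in either direction between them, and Slc22a7, Abcc2 and Abcc1 in YAP_OE against LATS_KO changed sign to 0.089, -0.17 and 0.034. RLE factors and DESeq2 put the median log2 fold change of all genes in YAP_OE at 0.34 and 0.44, against 0.17 with TMM, and DESeq2 that in LATS_KO at 0.28, against 0.13, and in YAP_OE against TdTomato RLE left 6 members lower, without Slco1b2. Depth limits the members with few counts. Of the 37 members, 23 were at 0 in TdTomato 1 and 21 in LATS_KO 3, against 1 to 7 in each other library. TdTomato 1 held 13523194 counts assigned to genes and LATS_KO 3 held 6166680, against 15934475 in TdTomato 3, where 7 members were at 0. For genes at 0 in TdTomato 1 and LATS_KO 3, the cause was not tested.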

Other observations

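Slco4a1, a member too low to be tested, was at 10.3 CPM in LATS_KO 3 and at most 0.0921 CPM in any other library, which makes it 96 counts in LATS_KO against 0 in TdTomato. Hao2, one of the genes biased to females and chosen after its values were seen, was at 3.59 to 12.9 CPM in YAP_OE, 0 to 0.135 CPM in LATS_KO and 0 to 0.0552 CPM in TdTomato.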
